A study of Mus musculus with 12 samples.

Results

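The genes described here are 9 mouse genes of cholesterol sensing, efflux, lysosomal exit and storage: the liver X receptor (LXR) genes Nr1h2 and Nr1h3, the efflux genes Abca1, Abcg1 and Apoe, the LDL receptor-degrading ligase Mylip, the lysosomal genes Npc1 and Npc2, and the esterifying enzyme Soat1. They were taken by symbol, with earlier results of these data known, and are 9 of the 55487 genes in the count table and 9 of the 11314 protein-coding genes that had enough counts to be tested. All 9 passed that filter, with between 12 and 51 counts per sample for Apoe and between 3833 and 6263 for Npc2. The comparisons address whether the transcripts of a sterol-loaded cell moved along with the transcripts of cholesterol synthesis when mesenchymal stromal cells (MSCs) were exposed to A1.

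RNA was sequenced from primary wild-type MSCs grown from bone marrow of C57BL/6 mice, which the study describes as female, in 3 groups of 4 samples. Control MSCs were untreated, A1-treated MSCs received 50 μM A1 for 6 h, and A1 + OVA-treated MSCs received 50 μM A1 together with 1 mg/ml ovalbumin (OVA), the chicken egg-white protein used as a model antigen, for 6 h. A1 is a variant of the Accum technology, in which cholic acid, a bile acid made from cholesterol, is linked to a nuclear localization signal. All groups were grown in the same serum-containing medium, but the treatment text for A1 + OVA ends with a fragment that names insulin and gives no dose for it. As no samples with OVA alone were compared, a difference between A1 + OVA and A1 covers everything that was added with the OVA. The labels do not state that the 4 samples of a group came from separate mice or cultures, so the p-values measure the spread between these samples, which may be technical.

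Total counts were 15644991 to 16881995 per sample in control, 13702348 to 14347870 in A1 and 14359973 to 16674294 in A1 + OVA. Among the MSC markers, Itgb1, Pdgfrb, Pdgfra, Vcam1 and Cd44 were abundant in control (1451, 389, 247, 226 and 175 CPM, the counts scaled to the normalized library size), whereas Thy1, Nt5e and Lepr were near 0 (0.27, 0.54 and 0.60 CPM). Some of these markers moved with A1, as Cd44 and Itgb1 rose by 1.39 and 0.62 on the log2 scale and Pdgfra and Vcam1 fell by 0.99 and 0.95. Pdgfrb had a log2 fold change of -0.01 with A1 and -0.14 with A1 + OVA. The summed list was 2436 to 2637 CPM in control, 3234 to 3454 CPM in A1 and 3061 to 3293 CPM in A1 + OVA. It was mostly Itgb1, which averaged 2225 CPM in A1. Of 12 macrophage markers, Spi1 and Tyrobp had 0 counts in every sample, Adgre1, Itgam, Fcgr1 and Cx3cr1 had at most 3, and Ptprc had a mean of 0.11 CPM in control. The summed level of that list was 10.8 to 11.9 CPM in control, 15.4 to 17.6 CPM in A1 and 12.9 to 15.5 CPM in A1 + OVA, and was mostly Cd14, which rose with A1 from 7.59 to 11.3 CPM, while Mrc1 rose from 1.48 to 3.01 CPM. The summed adipocyte markers ranged from 189 to 195 CPM in control and from 180 to 198 CPM in A1, and the summed endothelial markers reached at most 0.92 CPM in any sample. Differences between replicates were measured as mean squares, relative to the variance that counting noise alone would give. On that scale, within A1 + OVA, replicates 1 and 2 differed by 2.50 times and replicates 3 and 4 by 3.96 times. Between these pairs it was 5.43 to 8.72 times. Within A1, replicates 1 and 3 (2.88 times) and replicates 2 and 4 (3.41 times) were likewise closer than the other pairs (6.79 times or more). In control, replicates 3 and 4 were closest (2.18 times), against 4.32 to 6.90 times for the other pairs.

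LXRs are nuclear receptors that bind oxidized cholesterol derivatives and, as heterodimers with the retinoid X receptor, switch on genes that move cholesterol out of the cell. The opposite arm is run by SREBP2, a transcription factor held in the endoplasmic reticulum when sterols are plentiful and released to drive cholesterol synthesis and uptake when they are scarce. Cholesterol that arrives through lysosomes leaves them by way of NPC2 and NPC1, and what the membranes do not need is either exported by ABC transporters to apolipoprotein acceptors or esterified by SOAT1 and stored in lipid droplets.

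Promoter sequences are shown for Abca1, the LXR target whose promoter holds an LXR element, and for Soat1, the member with the largest increase with A1. They are RefSeq sequences on build GRCm38.p6, each from 250 bases before to 50 bases after an annotated start, read 5′ to 3′ on the gene's own strand, which is the minus strand in both (chr4:53159846-53160145 and chr1:156474279-156474578). Capitals mark the matches to the motifs searched. In Abca1 these are, from the 5′ end, the E-box, the sterol response element core on the opposite strand and the LXR direct repeat on the opposite strand. In Soat1 the capitals mark a sterol response element core on the opposite strand.
Abca1: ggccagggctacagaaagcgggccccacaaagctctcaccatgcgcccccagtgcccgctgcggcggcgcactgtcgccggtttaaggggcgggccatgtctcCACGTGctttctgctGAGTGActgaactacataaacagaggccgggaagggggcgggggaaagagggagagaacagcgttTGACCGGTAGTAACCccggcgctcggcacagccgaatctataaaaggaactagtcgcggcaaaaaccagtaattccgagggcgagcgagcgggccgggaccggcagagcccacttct
Soat1: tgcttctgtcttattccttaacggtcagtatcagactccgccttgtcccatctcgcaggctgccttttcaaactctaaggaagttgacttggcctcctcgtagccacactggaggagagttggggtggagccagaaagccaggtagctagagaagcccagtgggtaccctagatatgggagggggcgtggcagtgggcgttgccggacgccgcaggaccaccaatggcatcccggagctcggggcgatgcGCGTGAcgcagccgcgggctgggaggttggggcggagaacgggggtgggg

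Of the 9 genes, 7 were matched in the promoter table, with 10 windows between them, and Abcg1 and Npc1 were not. The LXR direct repeat was searched on both strands as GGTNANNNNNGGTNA, and 0.718% of all 32851 windows of the table held it. Among the 7 genes it was found in Abca1, where the match starts at position -67 from the start site. The single repeat unit AGGTCA, present in 16.3% of all windows, was in none of the 10. The core TCACNC was present in 43.2% of all windows and in 5 of the 10. These 5 belong to 4 of the 7 genes, Nr1h3, Abca1, Apoe and Soat1, and not every window of Apoe held it. The E-box CACGTG, bound by the lysosomal regulator TFEB among others, was present in 7.15% of all windows and in that of Abca1, starting at position -147. No match says only that these letters are not in these windows.

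In control MSCs Npc2 and Soat1 were the most abundant of the 9. Scaled by the length of all annotated exons, Npc2 stood at 67.2 ± 2.58 CPM per kb (SD, n = 4) and Soat1 at 13.4 ± 0.82 CPM per kb. Mylip, at 8.05 ± 0.26 CPM per kb, and Nr1h2, at 7.60 ± 0.81 CPM per kb, overlapped between samples, and Npc1 followed at 6.18 ± 0.33 CPM per kb. Nr1h3 (2.27 ± 0.15 CPM per kb) and Abcg1 (2.08 ± 0.13 CPM per kb) overlapped, above Abca1 at 1.06 ± 0.10 and Apoe at 0.70 ± 0.25 CPM per kb. The RNA for the exporters and their acceptor was thus listed below that for the lysosomal exit proteins and the esterifying enzyme, in these cells and on this scale.

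With A1 the upper 5 places were held by the same genes in the same order, and the order of the lower 4 differed. Abcg1 (1.34 ± 0.13 CPM per kb), Apoe (1.16 ± 0.22) and Nr1h3 (1.12 ± 0.16) formed a run of overlapping neighbours, and Abca1 lay below all samples of these at 0.79 ± 0.04 CPM per kb. In A1 + OVA, neighbours overlapped from Mylip to Npc1 and from Abcg1 to Abca1. With the coding length in place of the exon length, 4 of the 9 genes stood at the same place in A1 + OVA. In control, Abcg1 then stood above Nr1h3 (7.51 and 4.27 CPM per coding kb), and in A1 the order was the same. The exon length of Npc2 is 5438 bases against a coding length of 447 bases, so its level per kb depends most on that choice.

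**Figure D1:**
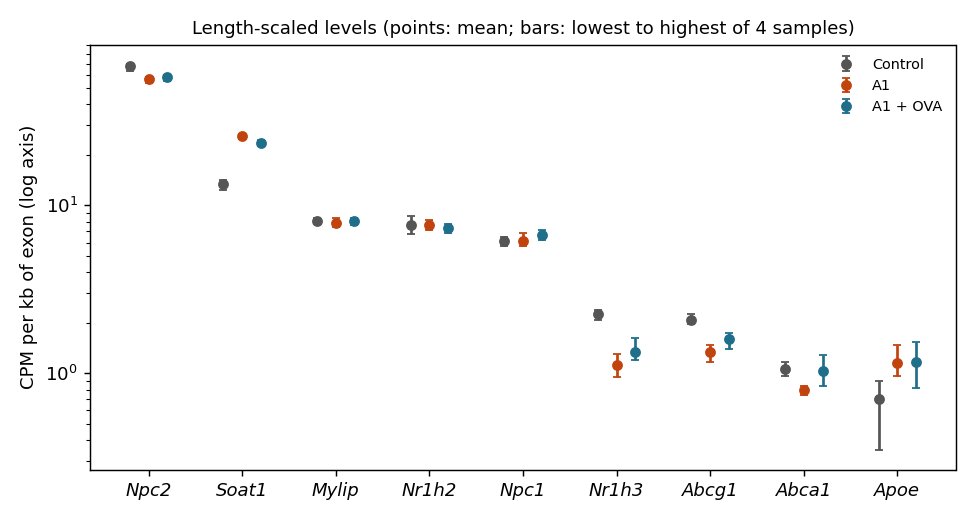
Length-scaled levels of the 9 genes (CPM per kb of exon, log axis) in control, A1-treated and A1 + OVA-treated MSCs, with points for the mean and bars from the lowest to the highest of 4 samples. Npc2 and Soat1 lie above the other genes in every group, and Abcg1, Nr1h3, Abca1 and Apoe lie below them.

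A1 changed 6 of the 9 genes, and in both directions. By edgeR's quasi-likelihood test with Benjamini-Hochberg adjustment over all tested genes, Soat1 and Apoe rose, while Nr1h3, Abcg1, Abca1 and Npc2 fell, and Nr1h2, Mylip and Npc1 did not pass the threshold. This has to be read against the background, since 62.7% of all tested genes passed the same threshold of an adjusted p under 0.05 in this comparison. When a log2 fold change of 0.5 or more in either direction was also required, 4 of the 9 genes were called, against 21% of all tested genes. The median log2 fold change of the 9 genes was -0.03, and that of all tested genes was -0.00. The groups did not overlap for 6 of the 9 genes, as for 54.4% of all tested genes. In RNA from whole cultures, fewer cells of a kind and less RNA per cell cannot be told apart.

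With A1 + OVA, 5 of the 9 genes passed the threshold against control, where 57.6% of all tested genes did. Soat1 and Apoe again rose, and Nr1h3, Abcg1 and Npc2 fell. Requiring a change of 0.5 or more on that scale left Soat1, Apoe and Nr1h3, where 17.7% of all tested genes were called. The groups did not overlap for 4 of the 9 genes, as for 49.4% of all tested genes. Both comparisons use the same 4 control samples. Directly between A1 + OVA and A1, 2 of the 9 genes differed, where 12.9% of all tested genes did: Abca1 was higher and Soat1 lower with A1 + OVA. Neither reached a change of 0.5 on the log2 scale, as 1.2% of all tested genes did. Soat1 was the 1 gene of the 9 whose groups did not overlap, as for 18.1% of all tested genes.

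**Figure D2:**
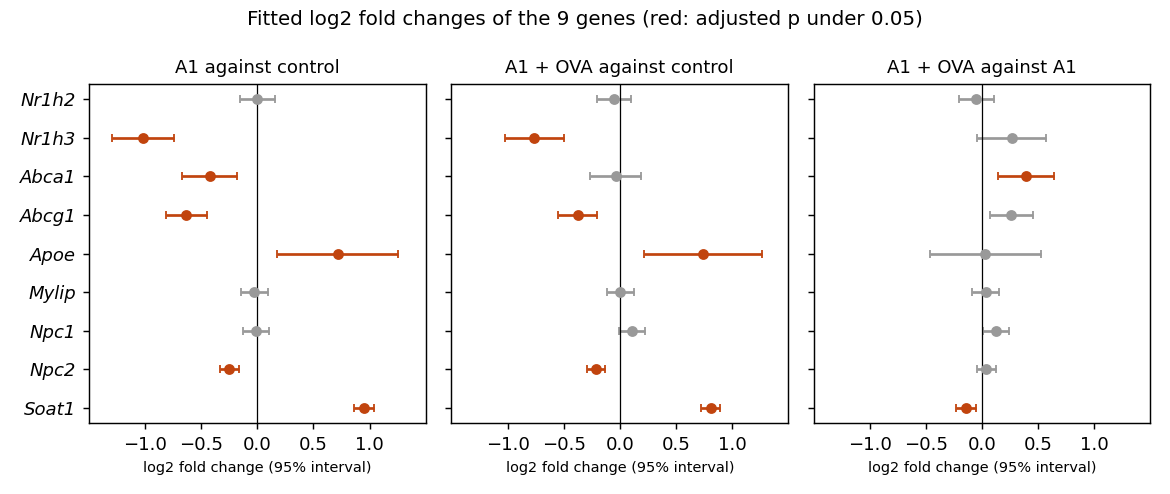
Fitted log2 fold changes of the 9 genes (points) with their 95% intervals in A1 against control, A1 + OVA against control and A1 + OVA against A1, in red where edgeR's adjusted p was under 0.05. Soat1 lies farthest to the right and Nr1h3 farthest to the left in the A1 comparison (0.95 and -1.02), and in the direct comparison of both treatments Abca1 and Soat1 are red.

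The LXR receptors came apart. Nr1h3, which encodes LXRα (ENSMUSG00000002108, chromosome 2 from 91184061 to 91202834), was measured at 5.63, 5.97, 6.00 and 5.20 CPM in control, 3.25, 3.05, 2.52 and 2.40 CPM in A1, and 4.06, 3.17, 3.04 and 3.27 CPM in A1 + OVA. Every treated sample lay below every control sample. Nr1h3 fell by 1.02 on the log2 scale with A1 (standard error 0.13, edgeR adjusted p = 9.4e-07) and by 0.76 with A1 + OVA (standard error 0.12, adjusted p = 2.17e-05). The difference between both treatments, 0.26, had a 95% interval of -0.05 to 0.57 and did not pass the threshold (adjusted p = 0.268).

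Nr1h2, which encodes the widely expressed LXRβ (ENSMUSG00000060601, chromosome 7 from 44549616 to 44553951), was measured at 28.8, 22.6, 24.1 and 26.4 CPM in control, 27.6, 23.8, 26.4 and 24.2 CPM in A1, and 23.6, 25.5, 23.1 and 26.1 CPM in A1 + OVA. The 3 groups overlapped. Its log2 fold change with A1 was 0.00, with a 95% interval of -0.15 to 0.16 (edgeR adjusted p = 0.994), and with A1 + OVA it was -0.05, with an interval of -0.20 to 0.10. As a share of the summed length-scaled level of both receptors, Nr1h3 made up 23.1% ± 2.76 (SD, n = 4) in control, 12.8% ± 1.58 in A1 and 15.5% ± 2.10 in A1 + OVA. With coding lengths these shares were 18.4%, 9.93% and 12.1%.

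Both sterol exporters fell with A1. Abcg1, a transporter that loads cholesterol onto HDL particles (ENSMUSG00000024030, chromosome 17 from 31057675 to 31117988), was measured at 14.7, 15.4, 14.3 and 16.4 CPM in control, 9.91, 10.8, 10.0 and 8.57 CPM in A1, and 10.1, 12.1, 11.8 and 12.7 CPM in A1 + OVA. All treated samples lay below all control samples. Abcg1 fell by 35.5% with A1 (log2 fold change -0.63, standard error 0.09, edgeR adjusted p = 2.11e-06) and fell by 22.9% with A1 + OVA (log2 fold change -0.37, standard error 0.08, adjusted p = 0.000588). Between both treatments the log2 difference was 0.26, with a 95% interval of 0.07 to 0.45, and missed the threshold (adjusted p = 0.0692), which it passed when A1 + OVA replicate 1 was left out (0.32, adjusted p = 0.0262).

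Abca1, which exports cholesterol and phospholipid to lipid-poor apolipoproteins and whose promoter is shown above (ENSMUSG00000015243, chromosome 4 from 53030787 to 53159895), was measured at 10.3, 10.0, 12.1 and 11.6 CPM in control and at 7.67, 8.25, 8.17 and 8.71 CPM in A1. The A1 samples lay below every control sample and close together. In A1 + OVA the values were 11.5, 8.67, 9.44 and 13.3 CPM, which spread wider than either other group and overlapped both. Abca1 fell by 0.42 on the log2 scale with A1 (standard error 0.12, edgeR adjusted p = 0.00366). With A1 + OVA the log2 difference from control was -0.04, with a 95% interval of -0.27 to 0.19.

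The direct difference of Abca1 between both treatments was 0.39 on the log2 scale (standard error 0.12, edgeR adjusted p = 0.0363), higher with A1 + OVA. This call depended on single samples. Of 12 fits with 1 sample removed each, 6 lost it, namely those without any of the 4 A1 samples (adjusted p = 0.055 to 0.107), A1 + OVA replicate 1 (adjusted p = 0.0699) or A1 + OVA replicate 4. Without the last, which had the highest level, the difference was 0.26 (adjusted p = 0.168).

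Apoe, an apolipoprotein that accepts exported cholesterol (ENSMUSG00000002985, chromosome 7 from 19696109 to 19699188), was the least abundant of the 9 in control. It was measured at 0.74, 1.77, 1.92 and 1.57 CPM in control, 2.24, 3.13, 2.06 and 2.47 CPM in A1, and 1.74, 1.84, 3.30 and 3.14 CPM in A1 + OVA. The A1 samples lay above every control sample, while in A1 + OVA replicates 1 and 2 lay within the control range and replicates 3 and 4 above it, the same pairs into which the A1 + OVA libraries fell over all genes. Apoe rose by 0.72 on the log2 scale with A1 (standard error 0.26, edgeR adjusted p = 0.0214) and by 0.74 with A1 + OVA (standard error 0.25, adjusted p = 0.0158). The rise with A1 lost its call without control replicate 1 (0.49, adjusted p = 0.0813) or without A1 replicate 2 (0.59, adjusted p = 0.0809). The rise with A1 + OVA lost it without control replicate 1 (0.52, adjusted p = 0.0632), A1 + OVA replicate 3 (0.59, adjusted p = 0.0672) or A1 + OVA replicate 4 (0.61, adjusted p = 0.0655). Apoe is a macrophage transcript as well, and Cd14 and the summed macrophage list, which is mostly Cd14, were also higher in both treatments. Cd68 of that list did not pass the threshold, with log2 fold changes of -0.10 with A1 and 0.22 with A1 + OVA. Lyz2 averaged 0.32 CPM in control, 0.11 CPM in A1 and 0.21 CPM in A1 + OVA. Csf1r averaged 0.29, 0.30 and 0.40 CPM in the same order. Mrc1 rose by 1.01 on the log2 scale with A1 (edgeR adjusted p = 4.71e-05) and had a log2 fold change of 0.38 with A1 + OVA (adjusted p = 0.0983), whereas Spi1 and Tyrobp were at 0 in all samples. The part of these transcripts and of the pairing of libraries in the rise of Apoe was not tested.

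**Figure D3:**
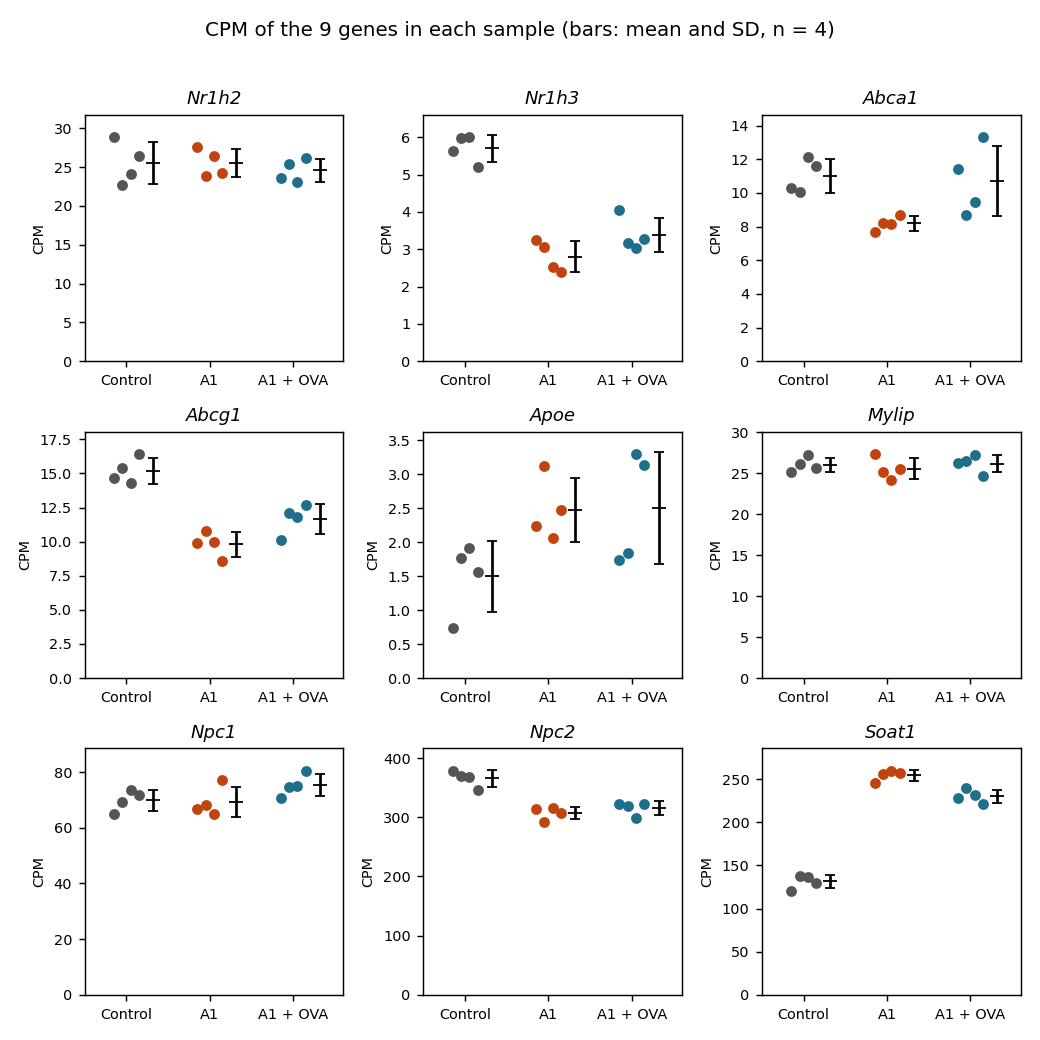
CPM of each of the 9 genes in the 4 control, 4 A1-treated and 4 A1 + OVA-treated samples (points), with the mean and SD beside each group. Soat1 is separated most from control, at 245 to 260 CPM in A1 against 121 to 138 CPM in control, while the groups of Nr1h2, Mylip and Npc1 overlap.

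Mylip, an LXR target that encodes the ubiquitin ligase IDOL, which marks the LDL receptor for degradation (ENSMUSG00000038175, chromosome 13 from 45389742 to 45412022), was measured at 25.2, 26.1, 27.2 and 25.6 CPM in control, 27.3, 25.2, 24.2 and 25.5 CPM in A1, and 26.2, 26.5, 27.2 and 24.7 CPM in A1 + OVA. The groups overlapped. Its log2 fold change was -0.03 with A1, with a 95% interval of -0.15 to 0.09 (edgeR adjusted p = 0.715), and 0.01 with A1 + OVA, with an interval of -0.11 to 0.12.

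The lysosomal pair also differed. Npc2, the soluble protein that passes cholesterol to NPC1 inside the lysosome (ENSMUSG00000021242, chromosome 12 from 84754562 to 84773152), was measured at 379, 370, 368 and 346 CPM in control, 315, 293, 316 and 307 CPM in A1, and 322, 319, 298 and 323 CPM in A1 + OVA. All treated samples lay below all control samples. Npc2 fell by 0.25 on the log2 scale with A1 (standard error 0.04, edgeR adjusted p = 1.31e-05) and by 0.21 with A1 + OVA (standard error 0.04, adjusted p = 9.39e-05), a small change resolved by its high counts.

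Npc1, the membrane protein that takes cholesterol across the lysosomal membrane (ENSMUSG00000024413, chromosome 18 from 12189692 to 12236400), was measured at 65.0, 69.3, 73.6 and 71.7 CPM in control, 66.9, 68.2, 65.0 and 77.0 CPM in A1, and 70.9, 74.7, 75.2 and 80.5 CPM in A1 + OVA. The groups overlapped in all comparisons. The log2 fold change with A1 was -0.01, with a 95% interval of -0.13 to 0.10. With A1 + OVA it was 0.11 (interval -0.00 to 0.22, edgeR adjusted p = 0.0918), which passed the threshold when A1 + OVA replicate 1 was left out (0.14, adjusted p = 0.0463). Between both treatments it was 0.12 (interval 0.01 to 0.24, adjusted p = 0.157), and it passed without A1 replicate 4 (0.17, adjusted p = 0.0496). Npc1 overlaps Rmc1 on the opposite strand, and the counting was strand-specific.

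Soat1, which esterifies cholesterol for storage (ENSMUSG00000026600, chromosome 1 from 156424525 to 156474331), had the largest increase of the 9. It was measured at 121, 138, 137 and 130 CPM in control, 245, 256, 260 and 256 CPM in A1, and 229, 239, 232 and 221 CPM in A1 + OVA. Every treated sample lay far above every control sample, and every A1 + OVA sample lay below every A1 sample. Soat1 was 1.93-fold higher with A1 (log2 fold change 0.95, standard error 0.04, edgeR adjusted p = 3.26e-14) and 1.75-fold higher with A1 + OVA (0.81, standard error 0.04, adjusted p = 5.63e-13). The difference between both treatments was -0.14 (standard error 0.04, adjusted p = 0.027), and this call was lost without A1 replicate 2, 3 or 4 (adjusted p = 0.058, 0.0671 and 0.0615) or without A1 + OVA replicate 4 (-0.12, adjusted p = 0.0944). Soat2, the isoenzyme of liver and intestine, was at 0.11 CPM in control and 0.13 CPM in A1.

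The genes of the pathway outside the 9 were read from lists, 116 genes in all, of which 89 could be tested. With A1, 10 of these 89 rose and 62 fell, where 31.7% of all tested genes rose and 31.1% fell. With A1 + OVA, 11 rose and 58 fell, where 29.7% and 27.9% of all tested genes did.

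Of 17 other LXR targets, 10 could be tested, with a median log2 fold change of -0.33 with A1. Of these, 2 rose and 6 fell, where 31.7% of all tested genes rose and 31.1% fell. Lpl, the lipase that frees fatty acids from lipoproteins, fell from 1840 ± 105 to 584 ± 14.1 CPM (SD, n = 4), a log2 fold change of -1.65 (edgeR adjusted p = 5.18e-18). The stearoyl-CoA desaturases Scd2 and Scd1 fell by 0.95 and 0.92. Arl4c, a small GTPase linked to cholesterol export, moved the other way and rose by 1.28 to 152 ± 3.07 CPM (adjusted p = 9.31e-16).

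With A1 + OVA the same 4 genes had log2 fold changes of -1.42, -0.97, -0.85 and 0.94. Srebf1, the LXR target that drives fatty acid synthesis, chosen after its values were seen, rose by 0.18 with A1 (edgeR adjusted p = 0.0356). That call was lost with upper-quartile normalization (0.15, adjusted p = 0.0797) and without control replicate 2 (0.10) or 3 (0.18) or A1 replicate 1 (0.17), 2 (0.16) or 4 (0.16). With A1 + OVA the log2 fold change of Srebf1 was 0.15 and did not pass the threshold (edgeR adjusted p = 0.0793). It passed without control replicate 4 (0.20, adjusted p = 0.0235). The classical LXR targets Abcg5, Abcg8, Apoc1, Apoc2 and Apoc4 had 0 counts in every sample, so that this list holds the LXR targets of liver and macrophages only in part.

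Among the partners and co-regulators of LXR, 14 of 15 could be tested, with a median of -0.28 with A1. Of these, 3 rose and 8 fell, where 31.7% of all tested genes rose and 31.1% fell. The co-regulator Nrip1 and the coactivator Ncoa1 both fell by 0.85, and the corepressor subunit Tbl1xr1 fell by 0.59 (edgeR adjusted p = 3.05e-12, 4.04e-11 and 9.64e-08). Rxra, which encodes an RXR partner and was chosen after its values were seen, fell by 0.38 with A1 and by 0.36 with A1 + OVA. The RXR gene Rxrb, chosen in the same way, rose by 0.23 with A1 and by 0.15 with A1 + OVA (edgeR adjusted p = 0.00299 and 0.0425). Its A1 samples lay above every control sample, while A1 + OVA overlapped control. Rxrg had 0 counts in every sample. Members that activate and members that repress transcription were both in the list.

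A1 carries a bile acid, and of 7 bile acid receptor genes 2 could be tested. Vdr, the vitamin D receptor, fell by 0.52 with A1 and by 0.71 with A1 + OVA (edgeR adjusted p = 4.35e-09 and 3.23e-11). S1pr2, a sphingosine phosphate receptor that also responds to conjugated bile acids, did not pass the threshold, at 0.07 with A1 (95% interval -0.04 to 0.18) and 0.06 with A1 + OVA (-0.05 to 0.17). Nr0b2, Gpbar1 and Nr1i2 had 0 counts in every sample, which at this depth allows up to 3 counts per sample, and Nr1h4, which encodes the bile acid receptor FXR, averaged 0.29 CPM in control and 0.02 CPM in both treatments.

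Other efflux and lipoprotein genes were measured thinly, with 6 of 13 tested. Of these, 1 rose and 3 fell with A1 (median -0.11), where 31.7% of all tested genes rose and 31.1% fell. Abca7 and Abca2, ABC transporters related to Abca1, fell by 0.67 and 0.54 (edgeR adjusted p = 2.99e-06 and 4.75e-05), and Cav1, which encodes the caveolar coat protein, rose by 0.13. Abca5 had a log2 fold change of -0.18 (adjusted p = 0.0301), a call that was lost without control replicate 2 (-0.17), 3 (-0.16) or 4 (-0.17) or A1 replicate 1 (-0.17) or 2 (-0.14). With A1 + OVA the log2 fold change of Abca2 against control was -0.07 (95% interval -0.26 to 0.11), and Abca2 was higher there than with A1 (0.47, edgeR adjusted p = 0.00281).

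The other genes of lipid storage and ester hydrolysis were mostly lower with A1. Of 18 such genes 14 could be tested, with a median of -0.60 with A1. Of these, 11 fell, where 31.1% of all tested genes did, and the other 3 did not pass the threshold. Lipe, the hormone-sensitive lipase, fell by 1.53, the droplet coat gene Plin4 fell by 1.16 from 306 ± 18.5 to 136 ± 10.8 CPM, and the carboxylesterases Ces1d and Ces1g fell by 1.06 and 1.05 (edgeR adjusted p = 7.59e-07, 4.44e-12, 0.000737 and 7.73e-13). Lipa, the lysosomal hydrolase of cholesterol esters, and Nceh1, another such hydrolase, both chosen after their values were seen, fell by 0.61 and 0.49. The adipocyte markers Adipoq and Cidec, at 2.20 and 1.54 CPM in control, fell too, while the adipocyte markers Pparg and Fabp4 had log2 fold changes of -0.01 and 0.02, and their part in the fall of the storage genes was not tested.

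With A1 + OVA, 1 of these 14 storage genes rose and 11 fell (median -0.43), where 29.7% of all tested genes rose and 27.9% fell. Directly against A1, 4 of the 14 were higher with A1 + OVA and the other 10 did not pass, where 6.05% of all tested genes were higher and 6.81% lower. Plin4 differed most, by 0.60 (edgeR adjusted p = 9.91e-06), and Lipa by 0.21 (adjusted p = 0.00293).

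Intracellular sterol transport moved both ways. Of 22 genes 19 could be tested, with a median of -0.19 with A1. Of these, 4 rose and 11 fell, where 31.7% of all tested genes rose and 31.1% fell. The oxysterol-binding protein gene Osbpl1a fell by 0.61 and Stard4, a sterol carrier that is also an SREBP2 target, fell by 0.49. Stard3, which tethers late endosomes to the endoplasmic reticulum, rose by 0.51, and Osbpl5 rose by 0.40 (edgeR adjusted p = 3.72e-06 and 3.09e-05).

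Cholesterol synthesis and uptake, the SREBP2 arm, was lower with A1 in 23 of 25 genes, with a median of -0.82, and lower with A1 + OVA in 23 of 25, with a median of -0.91. In each comparison the other 2 genes did not pass the threshold. Of all tested genes, 31.1% fell with A1 and 27.9% with A1 + OVA. Acat2, Fdps, Nsdhl and Tm7sf2, enzymes of the synthesis route, fell by 1.47, 1.32, 1.31 and 1.27 with A1. Beside this, the 9 genes of sensing, efflux and storage had medians of -0.03 with A1 and -0.04 with A1 + OVA. Of the LXR targets among them, Abca1 and Abcg1 fell with A1, Apoe rose and Mylip did not pass the threshold.

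**Figure D4:**
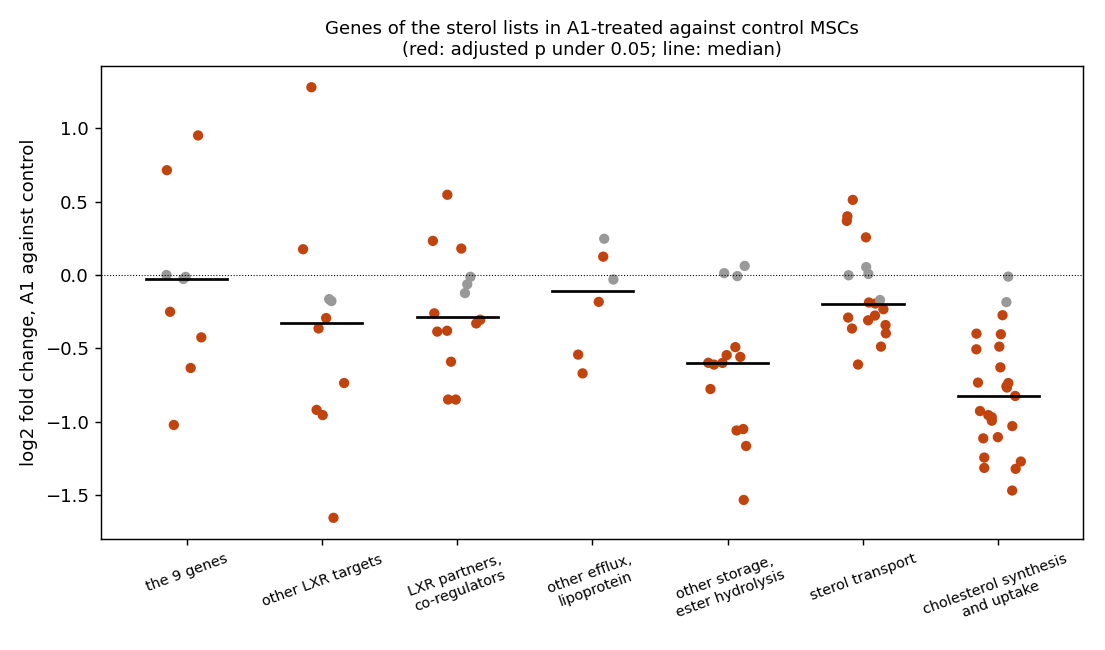
Log2 fold changes in A1-treated against control MSCs of the 9 genes and of the tested genes of 6 sterol lists (points, red where edgeR's adjusted p was under 0.05), with a line for the median of each list. The genes of cholesterol synthesis and uptake lie at or below 0 with a median of -0.82, and the 9 genes are spread from -1.02 to 0.95 around a median of -0.03.

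The genes whose pattern over the 12 samples was most like that of Abca1 and of Npc1 were sought by the mean absolute difference in log2 CPM, each gene set to its own control mean. For Abca1 these were Spg11, Wdr11, 4932438A13Rik, Spata7 and Palld, with mean differences of 0.10 to 0.11 on the log2 scale. For Npc1 they were Ap2b1, Map4, Lars, Med1 and Hk1, with mean differences of 0.03 to 0.05. As these genes were selected for that likeness, their own changes are not given as results. Values of some of them appear below only where samples were flagged or left out. Med1 also belongs to the list of LXR partners and co-regulators.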

How the data were processed

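RNA of 12 MSC samples, 4 control, 4 A1 and 4 A1 + OVA, was analysed, with groups and replicate numbers read from the sample titles, which also name the table's columns. The deposited values are raw counts per Ensembl gene: the authors prepared strand-specific poly(A) libraries, aligned the reads to GRCm38 with STAR (2.7) and counted them with featureCounts (2.0), strand-specifically and without normalization, per the labels and the study's methods. The table held 55487 genes, and 13702348 to 16881995 counts per sample. Symbols, biotypes, lengths and gene coordinates came from GENCODE M21 on GRCm38, which predates the annotation the authors counted on and holds 99.53% of the identifiers.

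Protein-coding genes (21974) were filtered with edgeR's filterByExpr, leaving 11314. After TMM normalization the 3 groups were fitted together without covariates, and contrasts were tested by quasi-likelihood in edgeR (4.0.16, under R 4.3.3), with Benjamini-Hochberg adjustment over all 11314 genes and a threshold of 0.05. CPM are counts scaled to the TMM-normalized library size, and errors after ± are SDs over 4 samples. Standard errors of log2 fold changes were derived from the fold change and the F statistic of its quasi-likelihood test. The 95% intervals were made from these standard errors with a t quantile, so both are approximate. Levels were compared between genes per kb of annotated exon. Genes with at most 3 counts in every sample are given as not detectable. That floor covers counting error only, since reads carry no molecular identifiers.

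The 9 genes and all lists were chosen with earlier results of these data known. Text names come from a rule: all 9 genes, in each list up to 4 genes with the largest absolute log2 fold change with A1 among those past the threshold, undetectable list genes, the 5 genes most like Abca1 and the 5 most like Npc1, and defining cell type markers. Rxra, Rxrb, Srebf1, Lipa, Nceh1, Soat2 and S1pr2 were named after their values were seen. List counts include a few genes whose own values are not reported here. The alternatives were DESeq2 (1.42.0), upper-quartile and RLE normalization, no filter, a minimum of 10 counts per sample, all genes, only the groups compared, a log2 fold change threshold of 0.5, a replicate block and each sample left out in turn. In simulated counts for 11243 genes made for A1 against control, edgeR recovered 75.5% of 98 genes changed by 0.5 on the log2 scale and 94% of 100 changed by 1. The simulation gave all genes the same dispersion and left most genes unchanged, unlike these data. It checks that the code works, and its percentages are not the power in these data. Mean squared differences between replicates were 2.18 to 9.00 times the variance of counting noise, so no library was a copy of another.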

Additional observations from a re-analysis of the deposited data

Results flagged for a closer look

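In groups of 4 samples, a sample was singled out where its gap to the nearest other sample was more than 0.829 of the group's range, which chance alone brings about in about 1 in 20 groups. Of 171 groups checked, 6 met this, and 0 of the 27 groups of the 9 genes did. In control, replicate 1 was lowest for Abca5 (21.66 CPM, against 24.2 to 24.8 CPM in the others) and for Med1 (87.88 CPM, against 96.1 to 97.2 CPM), and highest for Tm7sf2 (6.498 CPM, against 5.51 to 5.64 CPM) and for S1pr2 (43.44 CPM, against 40 to 40.3 CPM). In A1, replicate 4 was lowest for Lipe (0.7262 CPM, against 1.22 to 1.30 CPM) and for Fdps (3.631 CPM, against 5.27 to 5.57 CPM).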

How the results depend on the processing

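The counts of the 9 genes past the threshold, 6, 5 and 2 in A1 against control, A1 + OVA against control and A1 + OVA against A1, were the same with DESeq2, both other normalizations, both other filters, all genes, only the groups compared and the replicate block. Requiring a log2 fold change of 0.5 gave 4, 3 and 0 of the 9, and 43, 37 and 1 of the 89 other pathway genes in place of 72, 69 and 15. With 1 sample left out the 9 gave 5 to 6, 4 to 6 and 0 to 2 calls, and with 3 samples in a group the lower precision is part of that. With coding lengths, 4 of the 9 genes stood at the same place in the order of A1 + OVA, and Nr1h3 and Abcg1 changed places in control.

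Signs turned only for differences that had not passed the threshold, and the cause was not tested. Nr1h2 with A1 was -0.00139 with DESeq2, -0.0286 with upper-quartile normalization, -0.0011 with RLE, -0.00224 without a filter, -0.00407 with at least 10 counts and -0.00658 with all genes. Mylip with A1 + OVA was -0.000579 with DESeq2, -0.0166 with upper-quartile normalization, -0.000586 with RLE, -0.00589 with all genes and -0.000837 with only the groups compared. With 1 sample left out, log2 fold changes with A1 ranged from -0.0532 to 0.0655 for Nr1h2, -0.0737 to 0.0134 for Npc1, -0.0521 to 0.00985 for Ap2b1, -0.0355 to 0.0181 for Map4 and -0.0445 to 0.00617 for Med1. With A1 + OVA they ranged from -0.104 to 0.0145 for Nr1h2, -0.165 to 0.0554 for Abca1 and -0.0125 to 0.0341 for Mylip, and between both treatments from -0.126 to 0.158 for Apoe.

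To check the pairing, each sample's deviations from its group mean were correlated. The mean r was 0.021 for the 12 pairs with the same replicate number (-0.13 to 0.16). It was -0.007 for the 36 pairs with different numbers (-0.18 to 0.18). Both ends of that range were pairs of A1 replicate 2, with A1 + OVA replicate 4 (0.18) and with A1 + OVA replicate 1 (-0.18). The number thus did not mark closer samples, and what else samples of different groups share was not tested. A sample correlated best with its own number in another group in 6 of 24 cases. The replicate block left the calls of the 9 genes at 6, 5 and 2 and those of the other pathway genes at 72, 68 and 17. Depth limits Apoe and Nr1h3 most, which had 12 to 51 and 33 to 101 counts per sample.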
